A study of Mus musculus with 2 samples.

Results

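The T cell receptor complex and the genes that T cells use to read its signal were followed in monocytes sorted from the spleen of ICR mice, an outbred stock, 8 weeks after surgery, which was either sham or a 5/6 nephrectomy (5/6Nx) that removes most of the kidney tissue. The 34 genes were a named list, matched by gene name among the 37074 gene names on the array. The list holds the CD3 and zeta chains, the coreceptors, costimulatory and other surface molecules, proximal signalling proteins, transcription factors and cytokine receptors. The sort used antibodies to CD11b and Ly6C, and no antibody to a T cell antigen is named in the labels. The series compares the effect of lost kidney function on splenic monocytes. It holds 1 Agilent 1-colour array per group, so no difference given here has a replicate check and no p-value was computed. Both arrays were on 1 slide and in 1 scan, per the file headers, and the number of mice per array is not given in the sources consulted.

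The T cell receptor is built from clonally variable alpha and beta chains, or gamma and delta chains, which bind antigen but carry no signalling domain. The CD3 chains and the zeta chain, which is encoded by Cd247, carry the signal through paired tyrosine motifs in their cytoplasmic tails, known as immunoreceptor tyrosine-based activation motifs (ITAMs). The kinase Lck, held at the coreceptors CD4 and CD8, phosphorylates these motifs, Zap70 binds them, and the adaptor Lat then gathers the enzymes that raise calcium and activate transcription. Several of these genes, among them Cd247, Cd2, Zap70, Txk, Cd96 and Il2rg, are also known from NK cells.

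The ITAM can be read in the sequence of 2 of the 67 probes of the 34 genes, and they are shown because they read the signalling motif itself, beside the other probes of the same genes. Capitals mark the codons of each tyrosine motif, a tyrosine followed after any 2 residues by leucine or isoleucine, with 6 to 8 residues between the pair. Of 56605 probes of 60 bases on the array, 45 held such a pair, a share of 0.0795%. The Cd3d probe covers chr9:44794171-44794402 and the Cd247 probe chr1:167786567-167787585 in the mouse build mm9 of the files, and both span more than 60 bases of the genome and so cross a splice junction.
Cd3d ITAM probe: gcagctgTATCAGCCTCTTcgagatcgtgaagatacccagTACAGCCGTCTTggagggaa
Cd247 ITAM probe: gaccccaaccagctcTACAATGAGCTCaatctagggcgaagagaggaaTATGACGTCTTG

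Cd3g, Cd3d and Cd3e are neighbours on chromosome 9, with no other gene between them in the RefSeq annotation, and the RefSeq starts of Cd3g and Cd3d lie 1355 bases apart and point away from each other. Their promoters are shown beside those of the kinases Zap70 and Lck, since these genes were higher together on the 5/6Nx array. Each line gives the 250 bases before a RefSeq start (GRCm38.p6), on the gene's strand, and for Zap70 and Lck it is 1 of several starts. Capitals mark matches, on either strand, to short core motifs of factor families known in T cells: CTTTGA for TCF/LEF, AGATAA for GATA and TGTGGT for RUNX, which do not overlap here.
Cd3g promoter, chr9:44980432-44980681, minus strand: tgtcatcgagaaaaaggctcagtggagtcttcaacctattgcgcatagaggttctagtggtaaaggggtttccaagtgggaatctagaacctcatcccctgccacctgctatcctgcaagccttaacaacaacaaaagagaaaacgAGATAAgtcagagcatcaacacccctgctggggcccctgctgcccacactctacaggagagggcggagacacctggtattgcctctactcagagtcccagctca
Cd3d promoter, chr9:44981536-44981785, plus strand: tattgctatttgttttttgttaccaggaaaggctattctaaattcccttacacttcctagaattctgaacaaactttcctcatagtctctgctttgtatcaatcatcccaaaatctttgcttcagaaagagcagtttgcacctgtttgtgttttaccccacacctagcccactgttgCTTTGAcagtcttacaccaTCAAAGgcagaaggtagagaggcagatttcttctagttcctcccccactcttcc
Cd3e promoter, chr9:45009612-45009861, minus strand: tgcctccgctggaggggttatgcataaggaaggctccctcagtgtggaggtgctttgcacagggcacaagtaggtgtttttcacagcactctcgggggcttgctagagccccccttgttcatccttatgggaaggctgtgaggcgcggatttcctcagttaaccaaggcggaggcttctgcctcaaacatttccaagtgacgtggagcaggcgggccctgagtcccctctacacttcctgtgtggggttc
Zap70 promoter, chr1:36761548-36761797, plus strand: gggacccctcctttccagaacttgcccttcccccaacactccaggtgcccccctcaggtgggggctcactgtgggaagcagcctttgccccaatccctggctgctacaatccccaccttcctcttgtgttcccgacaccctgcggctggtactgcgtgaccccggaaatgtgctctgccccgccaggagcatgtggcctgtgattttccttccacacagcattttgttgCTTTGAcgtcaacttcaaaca
Lck promoter, chr4:129573642-129573891, minus strand: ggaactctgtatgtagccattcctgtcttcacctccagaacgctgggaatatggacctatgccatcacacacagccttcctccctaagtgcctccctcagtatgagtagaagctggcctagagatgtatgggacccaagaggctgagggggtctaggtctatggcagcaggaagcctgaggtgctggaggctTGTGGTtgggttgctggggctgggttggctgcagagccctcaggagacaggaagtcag
RefSeq promoters were matched for 26 of the 34 genes, with 37 promoters in all. The TCF/LEF motif was in 6 of the 37 (16.2%), against 13.8% of 32851 promoters of the same length. The GATA motif was in 3 (8.11%), against 9.99%, and the RUNX motif in 7 (18.9%), against 14.0%. A match describes letters in this window only, and binding was not measured here. Among the starts not printed, that of Lck and 1 of Zap70 held no match, and another of Zap70 held a RUNX match.

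T cell genes were higher on the 5/6Nx array in most cases. Of the 34 genes, 27 were measured, which means that the scanner software called a probe well above background on both arrays. On the 5/6Nx array 22 of these were higher by 2-fold or more, none was lower by as much and 5 lay within 2-fold. Among all 22301 measured genes 11.8% were higher by 2-fold or more and 9.71% were lower, so that higher genes made up 54.8% of those apart. Under median scaling they made up 41.2% and under spike-in scaling 82.3%, while no T cell gene was lower under either. At least 8-fold higher were 21 of the 27, against 2.38% of all measured genes. Another 6 genes passed background on the 5/6Nx array alone, as were 9.77% of the 25504 genes above background on either array, and 1 gene was above background on neither. For each of these 6 the lower bound was 2-fold or more, against 36.0% of the 2491 genes seen on the 5/6Nx array only.

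Values are given as the processed intensity of the gene's brightest measured probe, and then as the difference, 5/6Nx minus sham, in log2 units after each array was set to its 75th percentile. The median difference of the 27 genes was 3.80, with a range from -0.64 to 6.31, while the median of all measured genes was -0.10. With the 6 bounds added the median of the T cell genes was 3.78. The standard error of a difference, from the software's error model for a spot, was 0.20 to 0.32 over the 27 genes and leaves out sorting, labelling and the animals. With normexp in place of the software's background subtraction, 21 of the 27 differences shifted by more than this error, none of them across the 2-fold line. Of the 6 bounds, those of Ctla4 and Themis fell under 2-fold with normexp. On the sham array 13 of the 27 genes read under 100 and 3 read 1000 or more. On the 5/6Nx array 1 gene read under 100 and 21 read 1000 or more. In a sorted bulk sample, fewer cells of a type and less RNA per cell cannot be told apart, and neither can more cells and more RNA.

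**Figure D1:**
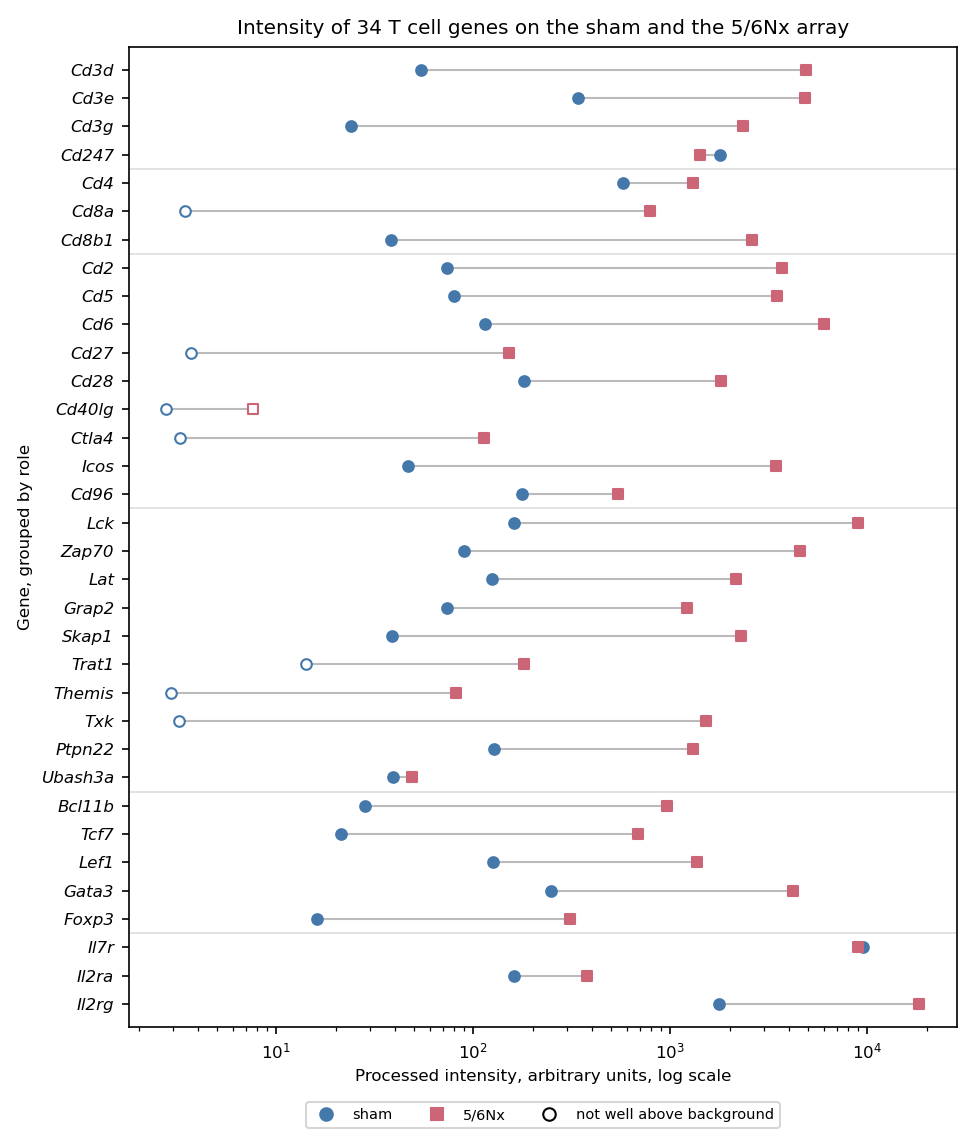
Processed intensity (log axis, arbitrary units) of each of the 34 T cell genes on the sham array (circles) and the 5/6Nx array (squares), grouped by role, with open symbols where no probe was well above background. Lines run from low sham values to higher 5/6Nx values for most genes, while Cd247, Ubash3a and Il7r have both symbols close together. Intensities of different genes come from different probes and do not rank the genes.

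Markers of other cells also differed between the arrays. Of 13 NK cell markers, all 5 that were measured were at least 8-fold higher and the other 8 were seen on the 5/6Nx array only, all with bounds of 2-fold or more. The intensities of all 13 summed to 313 (sham) and 57569 (5/6Nx), beside 16038 and 95093 for all 34 T cell genes. A few bright genes make up most of the T cell sham sum, with Il7r at 9496, Cd247 at 1779 and Il2rg at 1769. The sums thus do not compare the lists. The median difference of the measured genes was 4.41 for the NK cell markers and 3.80 for the T cell genes. Gzma, a granzyme, differed by 9.55, Il2rb, the receptor chain shared by interleukin-2 and interleukin-15, by 7.66 and Klra4, a Ly49 receptor, by 4.41. The 8 markers seen on the 5/6Nx array only read from 116 (Klrb1c) to 7456 (Nkg7) there, with Ncr1 at 360. Eomes is also on the list of T cell subset genes, so the lists overlap. Whether NK or T cells gave the signal of these markers was not tested. B cell markers had 3 of 8 measured genes at least 2-fold higher and 4 more on the 5/6Nx array only, with a median of 0.90 and a summed intensity over all 12 genes of 1553 against 3568. Their largest differences were 1.92 for Cd79b, 1.38 for Bank1 and 1.36 for Ebf1. Conventional dendritic cell markers had 3 of 6 higher and 1 lower, with differences of 4.43 for Itgae, 4.28 for Batf3 and -4.12 for Clec10a. Their summed intensity over all 10 genes was 22986 for sham and 4743 for 5/6Nx. Clec10a alone read 22415 and 1601, so the lower 5/6Nx sum reflects that gene and not the list. Another marker of the list, Cd209a, was above background on the sham array only, at 29.6 and 11.6, with a bound of -1.42. Of the defining markers of these cells, Xcr1 was above background on neither array, Clec9a read 2.81 and 30.6 and Zbtb46 read 14.5 and 199, both on the 5/6Nx array only, and Flt3 differed by 0.72. The part of any of these lists in the T cell results was not tested.

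The labelled cell type was checked against 14 monocyte and macrophage markers, which were all measured on both arrays. At 2-fold or more 4 were higher and 3 lower, the median was -0.11, and their intensities summed to 712754 (sham) and 1.01e+06 (5/6Nx). Ly6c1 read 43112 and 210831, and Ly6c2 read 43666 and 213343. The higher 5/6Nx sum thus reflects Ly6c1 and Ly6c2 and not the list. Itgam, which encodes CD11b, read 33016 and 31995, and Lyz2, the lysozyme of myeloid cells, read 324209 and 280049. Their other measured probes were lower by 2-fold or more, with differences of -1.18 for Itgam and -1.48 for Lyz2. The largest differences upward were in Fcgr1 at 2.63, Ly6c1 at 1.98 and Ly6c2 at 1.98, and downward in Cx3cr1 at -4.24, Cd68 at -1.42 and Mpeg1 at -1.04.

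**Figure D2:**
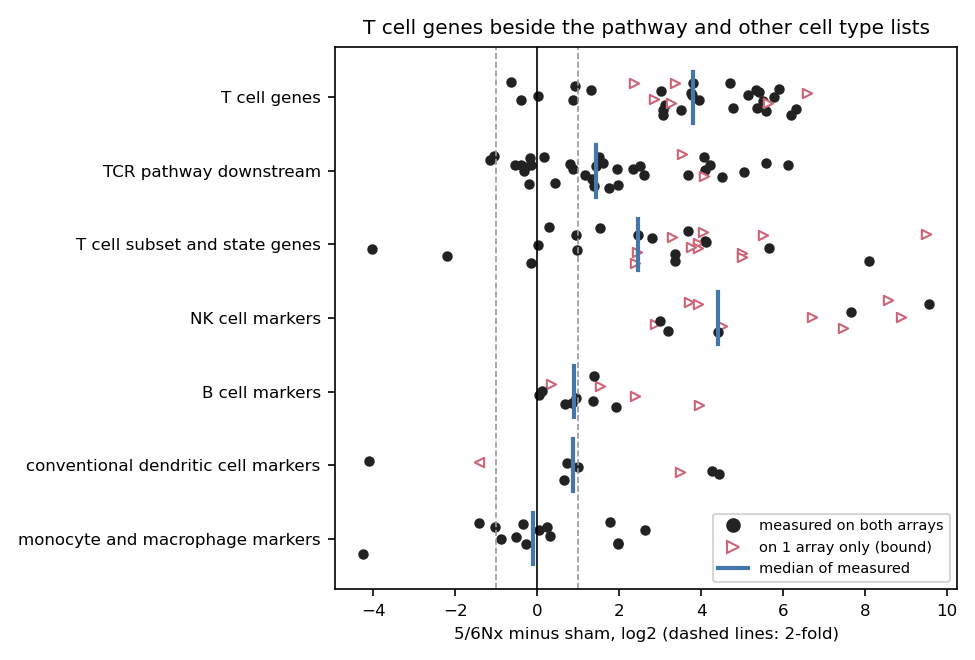
Difference between the arrays (log2, 5/6Nx minus sham) for each gene of the T cell genes, the downstream pathway, T cell subset genes and 4 lists of other cell types, with open triangles for bounds and a bar at the median of measured genes. The medians are 3.80 for the T cell genes, 1.45 for the pathway, 2.45 for the subset genes, 4.41 for NK cell markers and -0.11 for monocyte and macrophage markers.

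Among the signalling chains of the receptor, the 3 CD3 chains were higher on the 5/6Nx array, by a factor of 11.4 to 79.3, and the brightest zeta chain probe was not. Cd3g, the gamma chain of CD3, read 23.9 after sham surgery and 2352 after 5/6Nx, a difference of 6.31 (SE 0.29). Cd3d, the delta chain, read 54.2 and 4904, a difference of 6.19 (SE 0.22), and its ITAM probe, printed above, read 20.7 and 3222, a difference of 6.97. For both genes the sham signal was dim and the 5/6Nx signal was bright. Cd3e, the epsilon chain, read 341 and 4817, a difference of 3.51 (SE 0.20), and its other probe read 63.9 and 312, a difference of 1.98. Both Cd3e probes were thus higher, by unequal amounts. With normexp, another background correction, Cd3g and Cd3d differed by 4.41 and 5.10.

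The zeta chain gene Cd247 was read by 4 probes that differed from one another. The brightest probe (chromosome 1, 167791567 to 167791626, mm9), assigned to the transcript NM_001113391, gave 1779 for sham and 1420 for 5/6Nx, a difference of -0.64 (SE 0.20), or -0.21 with spike-in scaling. The ITAM probe printed above, assigned to NM_031162, read 3.10 and 44.4 and was above background on the 5/6Nx array only, at least 2.80-fold higher. The other probes, read at 2.78 and 37.7 and at 5.57 and 33.3, were also on the 5/6Nx array only, at least 2.38-fold and 2.10-fold higher. The probe that represents the gene was thus the only one of its 4 that was not higher on the 5/6Nx array. Which transcripts each probe reads was not tested.

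The chains that bind antigen were not among the 34 genes, and their probes were found by a search of the probe descriptions that was chosen after the data were seen. It gave 110 probes for 101 accessions, and 32 were measured on both arrays, of which 17 were at least 2-fold higher and none was lower. A further 55 were on the 5/6Nx array only, where 36 had a bound of 2-fold or more, and 23 were on neither. Among all probes above background on an array, 12.6% were at least 2-fold higher by value or bound. Constant regions, which every receptor of a chain shares, and variable segments, of which each T cell clone uses few, are given apart.

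All 10 constant region probes were higher. The 4 probes of the beta constant regions were measured on both arrays, with differences of 5.23 to 6.33. A probe of beta constant region 1 (chromosome 6, 41488583 to 41489260, mm9) gave 95.1 for sham and 9480 for 5/6Nx, and a probe of beta constant 2 (chromosome 6, 41497058 to 41497622) read 200 and 9298. The beta constant regions are near-identical copies, so their probes may read both. The alpha constant region, on the 5/6Nx array only, read 3.73 and 590, at least 37.3-fold higher. Constant regions of the gamma and delta chains, which gamma-delta T cells use, were also seen on the 5/6Nx array only. The delta constant region read 14.2 and 496, at least 28.3-fold higher, and the 4 gamma constant probes were at least 4.74-fold to 116-fold higher. Among them gamma constant 3 read 8.19 and 1844.

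Variable segments were higher in part. Of 100 probes 28 were measured on both arrays, and 13 of these were higher by 2-fold or more. The median difference of the 28 was 0.85, beside 5.65 for the 4 measured constant region probes. The 7 measured beta variable probes were all higher, with a median of 1.84, and the largest, beta variable 13-2, read 23.1 and 292. Of 19 measured alpha variable probes 5 were higher, with a median of 0.29. On the 5/6Nx array only were 12 beta variable probes, all 12 with a bound of 2-fold or more, and 30 alpha variable probes, 13 with such a bound. The chain and segment groups differ in the number of probes, and no difference between them was tested. By gene name alone, 12 probes carry a receptor segment's name, and 9 of them were on neither array. Those measured on both arrays were Trav6-3, at 144 and 268, a difference of 0.59, and Tcrg-V1, at 48.3 and 259, a difference of 2.11.

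**Figure D3:**
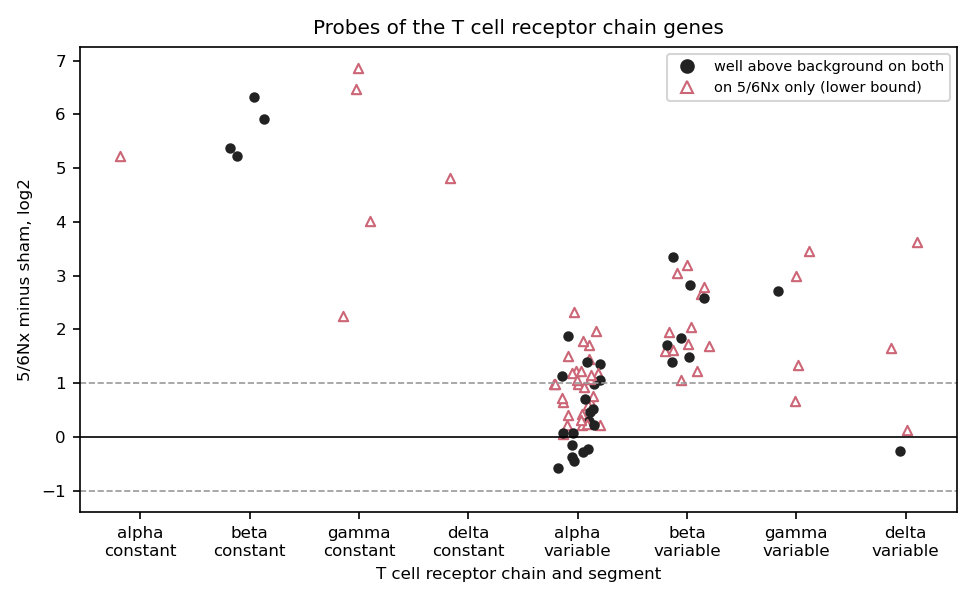
Difference between the arrays (log2, 5/6Nx minus sham) at each probe of the T cell receptor chain genes, by chain and segment, with filled points for probes measured on both arrays and open triangles for lower bounds. The 4 beta constant probes lie between 5.23 and 6.33, while the 19 alpha variable probes measured on both arrays lie between -0.59 and 1.88, with bounds of up to 2.33 at others.

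The coreceptors, which hold Lck and bind the MHC molecule, were split between CD8 and CD4. Cd8b1, the CD8 beta chain, read 38.4 after sham surgery and 2609 after 5/6Nx, a difference of 5.78 (SE 0.24). Cd8a, the CD8 alpha chain and its neighbour on chromosome 6, was on the 5/6Nx array only, at 3.43 and 788, and at least 49.7-fold higher. Both CD8 chains thus had low sham signals, 1 of them not well above background. Cd4, which is also known from some macrophages and dendritic cells, read 578 and 1305, a difference of 0.87 (SE 0.20) that lay within 2-fold. Its other probes read 18.6 and 66.1, a difference of 1.52, and 3.45 and 69.5, at least 4.39-fold higher. The Cd4 difference passed 2-fold with spike-in scaling, at 1.30, and with the mean over its probes, at 1.19.

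Surface molecules tune the response of T cells, and 8 of the 9 on the list were higher by value or bound. The 6 that were measured were all higher by 2-fold or more, with a median of 5.23, and 2 more were on the 5/6Nx array only. Icos, an inducible costimulator, read 46.8 after sham surgery and 3434 after 5/6Nx, a difference of 5.89 (SE 0.23). Cd6, a scavenger receptor family member of T cells, read 114 and 6010, a difference of 5.40, and Cd5, its neighbour on chromosome 19 and a negative regulator of receptor signalling, read 80.0 and 3478, a difference of 5.13. Cd2, an adhesion molecule, read 73.9 and 3693, a difference of 5.33, and its other probe differed by 5.58. These 4 genes thus read at most 114 on the sham array and at least 3434 on the 5/6Nx array.

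Cd28, the main costimulatory receptor, read 182 and 1813, a difference of 3.01 (SE 0.21). It lies on chromosome 1 beside Ctla4 and Icos, with no protein-coding gene between them. Ctla4, which competes with Cd28 for its ligands, was on the 5/6Nx array only, at 3.24 and 114, and at least 7.19-fold higher. Cd27, a costimulator of the TNF receptor family, was also on that array only, at 3.70 and 152, and at least 9.60-fold higher. Cd96, an immunoglobulin family receptor of T and NK cells, read 176 and 541 at its brightest measured probe, a difference of 1.31. Its RefSeq mRNA probe read 13.0 and 782, on the 5/6Nx array only, and was at least 48.7-fold higher. Cd40lg, the CD40 ligand of activated helper T cells, read 2.76 and 7.62 and was above background on neither array.

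Of the proximal signalling proteins, 6 of 7 measured genes were at least 8-fold higher, and 3 more were on the 5/6Nx array only. Lck, the kinase that starts the signal, read 160 after sham surgery and 8998 after 5/6Nx (chromosome 4, 129225614 to 129225673, mm9), a difference of 5.50 (SE 0.21). Its other probe was at least 23.4-fold higher. Zap70, the kinase that binds the ITAMs, read 89.4 and 4562, a difference of 5.36, and its other probe differed by 5.05. All measured probes of both kinases were thus higher on the 5/6Nx array. Skap1, an adaptor of integrin activation, read 38.5 and 2275, a difference of 5.58, and its other measured probe differed by 3.95.

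The adaptors Lat and Grap2 were higher by a factor of 13.9 and 13.4. Lat, the scaffold that Zap70 phosphorylates, read 125 and 2158, a difference of 3.80 (SE 0.21). Grap2, the adaptor Gads that joins Lat to other proteins, read 73.6 and 1223, a difference of 3.75. Among the genes seen on the 5/6Nx array only, Txk, a kinase of the Tec family, read 3.20 and 1517 and was at least 95.8-fold higher, which was the largest bound of the 6 genes. Trat1, a transmembrane adaptor, read 14.2 and 180, at least 10.2-fold higher. Themis, a regulator of receptor signalling in thymocytes, read 2.92 and 81.9, at least 5.17-fold higher, and its 3 other probes were on neither array.

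The negative regulators of this step gave unlike values. Ptpn22, a phosphatase that acts on Lck, read 127 and 1309, a difference of 3.06 (SE 0.21). Ubash3a, a suppressor of receptor signalling, read 39.3 and 49.1 at the only probe measured on both arrays, a difference of 0.01, which turned to -0.14 with median scaling, with spike-in scaling at 0.44. That probe was assigned to a non-coding transcript model, while its RefSeq mRNA probe read 10.2 and 90.6, on the 5/6Nx array only, and was at least 5.72-fold higher.

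**Figure D4:**
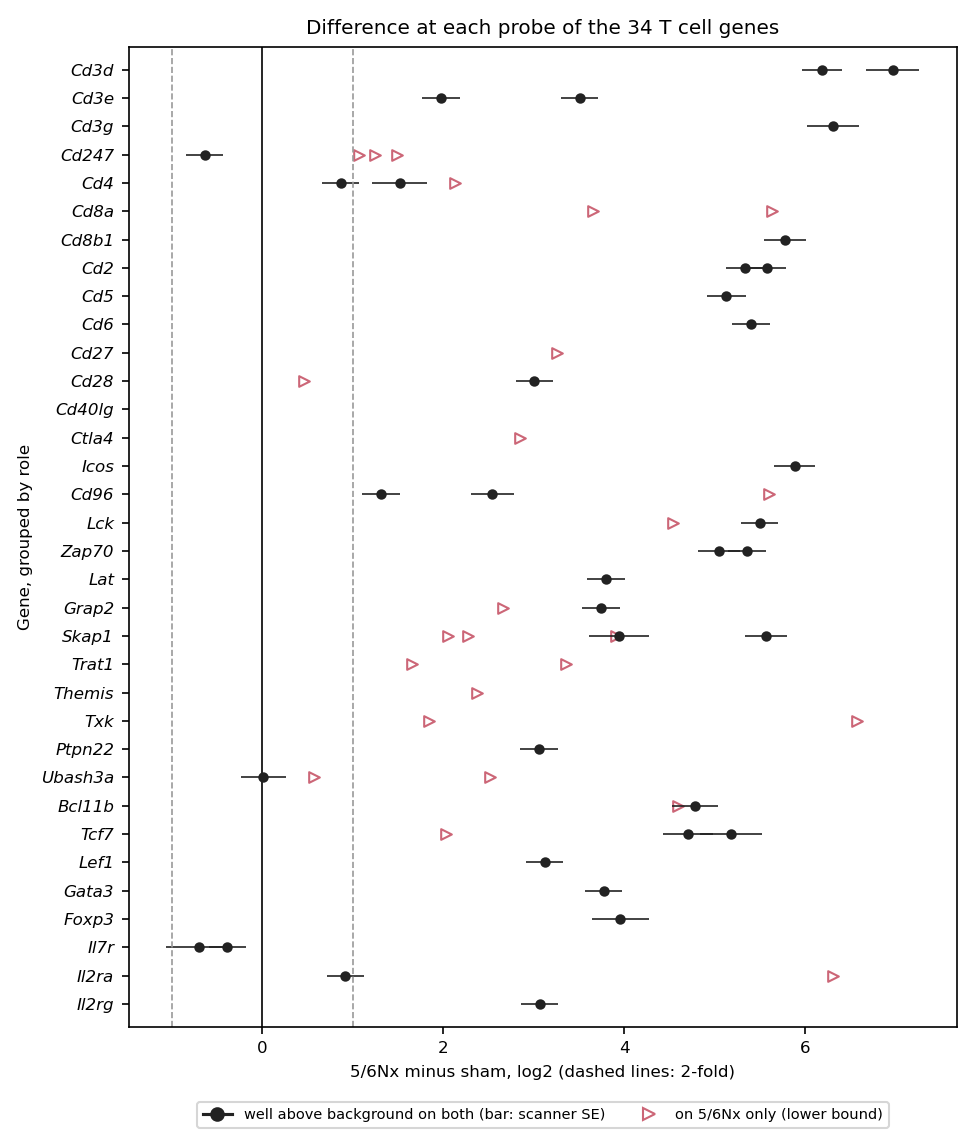
Difference between the arrays (log2, 5/6Nx minus sham) at each probe of the 34 T cell genes, with filled points and bars for probes measured on both arrays and the standard error of the software's spot model, and open triangles for lower bounds. Of 61 probes above background on an array, 53 were at least 2-fold higher, and the points left of 0 belong to Cd247 and Il7r.

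All 5 transcription factors were at least 8-fold higher, with sham intensities from 16.1 to 247. Gata3, which directs T cell development and the T helper 2 fate, read 247 after sham surgery and 4206 after 5/6Nx, a difference of 3.78 (SE 0.20). Lef1, a partner of the Wnt pathway in early and naive T cells, read 126 and 1360, a difference of 3.12 (SE 0.21). Both were well above background on each array and differed by 3.54 and 2.64 with normexp.

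Bcl11b, which fixes T cell identity, read 28.3 and 967, a difference of 4.78 (SE 0.26). Tcf7, which encodes TCF-1, read 21.2 and 689, a difference of 4.71 (SE 0.28), and its other measured probe differed by 5.18. Foxp3, the factor of regulatory T cells, read 16.1 and 311, a difference of 3.96 (SE 0.32). The sham signals of these 3 genes lay close to the lowest intensity called well above background on that array, 12.8. With normexp in place of the software's background subtraction, their differences were 3.23, 3.01 and 2.05.

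Of the 3 cytokine receptors 1 was at least 2-fold higher. Il2rg, the common gamma chain of several interleukin receptors, which is also known from NK and myeloid cells, read 1769 after sham surgery and 18393 after 5/6Nx, a difference of 3.07 (SE 0.20). Il7r, the interleukin-7 receptor chain that keeps naive T cells alive, was bright on both arrays, at 9496 and 9000, a difference of -0.39 (SE 0.20), or 0.04 with spike-in scaling. Its dim probe, at 22.2 and 16.9, differed by -0.70. Neither Il7r probe was thus 2-fold apart.

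Il2ra, the interleukin-2 receptor alpha chain, or CD25, of activated and regulatory T cells, had probes that differed. Its RefSeq mRNA probe (chromosome 2, 11614744 to 11614803, mm9) read 8.50 and 1259, on the 5/6Nx array only, and was at least 79.5-fold higher. The probe measured on both arrays (chromosome 2, 11570205 to 11570264), assigned to a cDNA clone, read 162 and 379, a difference of 0.92, or 1.35 with spike-in scaling. Il2ra is thus counted within 2-fold by the brightest measured probe and among the genes on the 5/6Nx array only by its RefSeq mRNA probe.

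Over all probes, 36 of the 67 were measured on both arrays, 25 were on the 5/6Nx array only, 6 were on neither and none was on the sham array only. By value or bound 53 of the 61 probes above background on an array (86.9%) were at least 2-fold higher, against 12.6% of 38417 probes. In the 9 genes with 2 or more probes measured on both arrays, the probes of a gene lay 0.25 to 1.63 apart. When genes were read through probes assigned to RefSeq mRNAs alone, an alternative chosen after the data were seen, 24 genes were measured, 21 were at least 2-fold higher and 9 more were on the 5/6Nx array only. Cd247, Cd4 and Il7r were then the genes measured and within 2-fold.

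**Figure D5:**
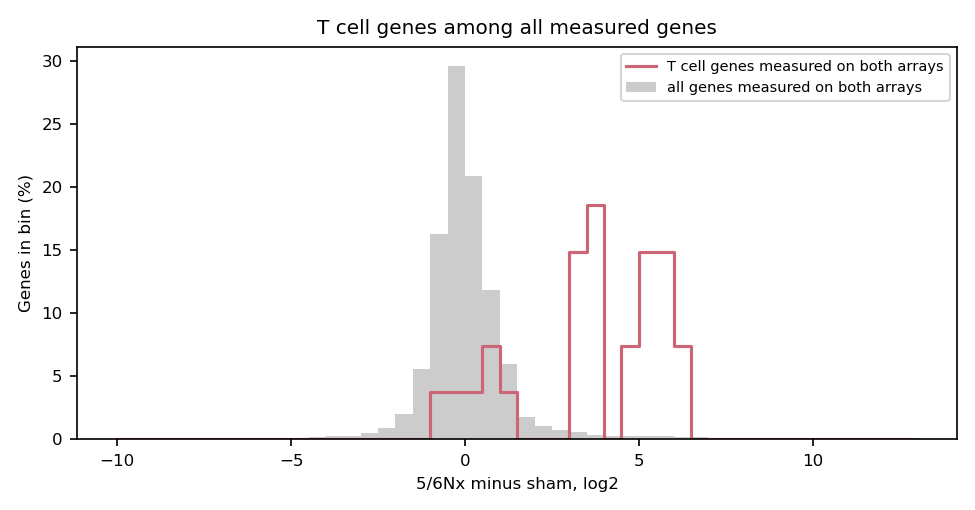
Share of genes (%) in bins of the difference between the arrays (log2, 5/6Nx minus sham), for all 22301 measured genes (bars) and the 27 measured T cell genes (line). All measured genes centre near their median of -0.10, while 21 of the 27 T cell genes lie at 3 or above.

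The wider pathway below the receptor was read through 35 further genes, of which 33 were measured. Of these 20 were at least 2-fold higher, 2 lower and 11 within 2-fold, and Sh2d1a and Tespa1 were on the 5/6Nx array only. The median was 1.45, and 8 of the 33 were at least 8-fold higher. Slamf6, a receptor of the SLAM family, read 76.5 after sham surgery and 4570 after 5/6Nx, a difference of 5.59, and Rasgrp1, which activates Ras after receptor triggering, read 97.8 and 3993, a difference of 5.04. Both thus read under 100 on the sham array. The lower genes were Nfatc2, a calcium-dependent transcription factor, at 2188 and 1227, a difference of -1.15, and Dgkz, a diacylglycerol kinase, at 16571 and 9928, a difference of -1.05. With spike-in scaling both lay within 2-fold. The next lowest was Orai1, a calcium channel, at -0.55. Probes of a gene differed here too, with the 3 measured probes of Nfatc2 from -1.64 to -0.04 and the 3 of Slamf6 from 2.75 to 5.59.

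Genes of T cell subsets and states were higher in part. Of 30 genes 17 were measured on both arrays, with 10 higher and 2 lower and a median of 2.45, and 11 were on the 5/6Nx array only, each with a bound of 2-fold or more. Among the larger differences upward were 5.65 for Tnfrsf18, which is known from regulatory T cells, and 4.11 for Ets1. Downward, Havcr2, a receptor of exhausted T cells and of myeloid cells, differed by -4.04, S1pr1 by -2.21 and Zbtb7b by -0.15. Ifng, the interferon gamma gene of T and NK cells, was named after its values were seen, and it read 11.5 and 11298, on the 5/6Nx array only, at least 713-fold higher. Il2 was above background on neither array.

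Genes of developing T cells were set beside these. Rag1 and Rag2, the recombinase that assembles receptor genes in the thymus, were above background on neither array. Dntt, the enzyme that adds bases at receptor gene joints, read 45.0 and 48.9, a difference of -0.19, and Ptcra, the pre-T alpha chain, was on the 5/6Nx array only with a bound under 2-fold. Cd1d1, which is also found on antigen-presenting cells, read 1652 and 22924, a difference of 3.48.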

How the data were processed

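RNA of splenic monocytes from ICR mice was measured with 1 Agilent array for sham and 1 for 5/6Nx. The deposited files hold linear intensity values per spot, background-subtracted and detrended within each array per the file headers, with no scaling between arrays. The submitters' processing notes give Agilent Feature Extraction 9.5.1.1, whereas the file headers give 10.7.1.1. The authors' deposited value table, also on a linear intensity scale, served as an alternative, and the labels do not say how its columns were normalized.

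Of 62976 spots per array 59305 were not controls. Spots with an outlier flag (41 on the sham array, 47 on the 5/6Nx array) were left out, none was saturated, and 63.0% and 67.0% of spots were well above background. Log2 intensity minus the array's 75th percentile (439 and 544) was averaged per probe. A gene took its brightest probe well above background on both arrays. For genes above background on 1 array only, a bound was taken from the bright array against the dim one, where the dim side was the probe itself or, if brighter, the faintest probe called well above background there (intensity 12.8 for sham, 13.7 for 5/6Nx). Over 285 probes well above background on both arrays with at least 8 usable spots, the SD of the log2 difference between single spots was 0.077. The number of arrays limits the precision.

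Called genes are those at least 2-fold apart, with no test. The 34 genes and all lists were chosen with earlier results of these data known. Every one of the 34 is named, with the 3 measured genes of each other list with the largest differences in either direction, where there were as many, and the 2 brightest named receptor segments. A few genes named by this rule are left out of the text, and some markers outside it are added. Symbols of all 34 matched the RefSeq table. Probe positions are on mm9, per the file headers, without exon annotation. The alternatives were 3 other scalings, normexp with an offset of 50, 3 other filters, the mean over probes, the value table and RefSeq mRNA probes. The steps were tested on simulated data. Python 3.11.15, pandas 2.3.3, numpy 2.4.6, biopython 1.88, R 4.3.3 and limma 3.58.1 were used.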

Additional observations from a re-analysis of the deposited data

How the results depend on the processing

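The 22 T cell genes at least 2-fold higher were so in every one of 10 alternatives in which they were measured, and none of the 34 was at least 2-fold lower in any. The median difference of 3.80 was 3.23 with normexp, which shrinks differences of dim spots, 4.23 with spike-in scaling, 4.23 with no filter on dim probes and 4.33 with RefSeq mRNA probes. It was 3.65 with median scaling, 3.79 with quantile scaling and 3.78 in the authors' value table. The count of 22 became 14 when genes dimmer than the median gene were left out, which removed 10 of the 27. The count of 6 genes with a bound of 2-fold or more became 4 with normexp, where the bounds of Ctla4 and Themis were 0.96 and 0.77. It became 3 with the looser filter, under which 31 genes were measured on both arrays. Those 3 were Ctla4, Txk and Cd40lg, and Cd40lg was on neither array under the main filter. Themis was then measured by another, dimmer probe than the one that gave its bound, at 5.44 and 15.0, with a difference of 1.15. No bound count exists without a filter on dim probes. Scaling moved the median of all measured genes from -0.10 to -0.25 with median scaling and to 0.33 with spike-in scaling, which rests on 8 probes. Of all genes at least 2-fold apart 54.8% were higher, against 41.2% and 82.3% with these scalings. For T cell genes with a sham intensity under 100 the size of a difference depends on the background correction. Foxp3, whose sham intensity of 16.1 lies near the floor of 12.8, went from 3.96 to 2.05 with normexp. Zap70, at 89.4 further above the floor, went from 5.36 to 4.69. No paired analysis was possible because each group has 1 array.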
